A study of Mus musculus with 68 samples.

Results

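The genes described here are the protein-coding cytochrome P450 genes of families 1 to 4 in the mouse. They were taken as every row of the deposited gene count table whose symbol is Cyp, a digit from 1 to 4, a letter and a number, and whose biotype is protein_coding. This gave 76 of 56748 genes, namely 3 of family Cyp1, 49 of Cyp2, 7 of Cyp3 and 17 of Cyp4. Symbols with a further letter after the number, such as Cyp4a12a, do not match and were not analysed here. The 76 genes lie on 9 chromosomes in mm39, the build of the deposited table, with 15 each on chromosomes 4, 7 and 19.

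Cytochromes P450 are heme enzymes of the endoplasmic reticulum that insert an oxygen atom into a lipophilic substrate, with electrons passed on by P450 oxidoreductase, the product of Por. Families Cyp1, Cyp2 and Cyp3 act mainly on drugs, pollutants and steroids, and family Cyp4 mainly on fatty acids and eicosanoids. Their genes are among the most active of the hepatocyte, above all around the central vein, and are regulated by the receptors Ahr, Nr1i2 (Pxr), Nr1i3 (Car) and Ppara, while the lung's club cells and the kidney's proximal tubule express sets of their own.

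Polyadenylated RNA of liver, kidney, lung and heart was sequenced from wild-type female C57BL/6J mice aged 10 weeks. Treated mice received 1 mg/kg of Egf, the ligand of the receptor Egfr, in PBS by the retro-orbital route under isoflurane, vehicle mice received PBS in the same way, and untreated mice received neither. Organs were taken 2 h or 6 h after injection. Per organ and time there were 4 libraries of Egf and 3 of vehicle, and per organ 3 of untreated mice, or 68 libraries in 20 groups. The labels do not say which organs came from the same animal, and p values measure the spread between these libraries.

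Library depth lay between 13271813 and 24972005 counted reads. The members took 2.92% to 4.11% of the reads of a liver library, 0.443% to 0.541% in kidney, 0.497% to 1.06% in lung and 0.0121% to 0.478% in heart. Albumin (Alb), which hepatocytes make, reached 19092 CPM (read counts scaled to library size) in a lung library and 10211 CPM in a heart library, against 61342 to 95398 CPM in liver. Members of lung and heart whose values followed Alb were therefore set apart. All organs were bulk tissue, so fewer cells of a type and less RNA per cell cannot be told apart.

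Promoters are shown for abundant liver members that hold a motif of a hepatocyte factor, and for Cyp1a1. RefSeq promoters of build GRCm38.p6 were found for 62 of the 76 members. The letters CAAAGTCCA, a form of the element bound by the hepatocyte factor Hnf4a, occurred on either strand within 200 bases before the start in 8 of 62 members (12.9%) and in 0.318% of 27025 promoters. These 8 were Cyp2c40, Cyp2c65, Cyp2c67, Cyp2c68, Cyp2c69, Cyp2c70, Cyp3a11 and Cyp3a16, all of the Cyp2c and Cyp3a subfamilies. The bases around the match are nearly the same in Cyp2c40, Cyp2c67, Cyp2c68 and Cyp2c69. Those of Cyp3a11 and Cyp3a16 also resemble each other, so the 8 matches are not independent and their share describes related genes. The letters TATAAA occurred in 37.1% of members and 10.6% of all promoters, and GCGTG, the core of the element bound by Ahr, in 16.1% of members and 24.8% of all. A form of the Hnf1 element occurred in 3.23% and 0.366%, and TTGCGCAA (Cebp) and TTATGTAA (D box) in 0 members and in 0.137% and 0.725% of all promoters. Both strands of the same window were read for each, and matches of different motifs could overlap. The motifs were searched with the levels known, and a match is a description of the letters, not a binding site. The lines below give the 200 bases before the start of Cyp3a11 (chr5:145879855-145880054, minus strand), Cyp2c69 (chr19:39886770-39886969, minus strand), Cyp2c70 (chr19:40187287-40187486, minus strand) and Cyp1a1 (chr9:57697413-57697612, plus strand), from 5′ to 3′ on the gene's strand. The first 3 are abundant liver members with CAAAGTCCA in capitals, and Cyp1a1, described under lung, has GCGTG in capitals. Other abundant liver members, Cyp2e1, Cyp2d26, Cyp2d10 and Cyp2c29, were scanned and lacked CAAAGTCCA. Cyp2c65, which held it, averaged only 0.363 CPM in liver.
Cyp3a11: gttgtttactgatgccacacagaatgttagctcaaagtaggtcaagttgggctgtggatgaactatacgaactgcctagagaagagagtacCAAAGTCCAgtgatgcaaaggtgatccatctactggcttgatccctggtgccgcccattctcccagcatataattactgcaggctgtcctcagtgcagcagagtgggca
Cyp2c69: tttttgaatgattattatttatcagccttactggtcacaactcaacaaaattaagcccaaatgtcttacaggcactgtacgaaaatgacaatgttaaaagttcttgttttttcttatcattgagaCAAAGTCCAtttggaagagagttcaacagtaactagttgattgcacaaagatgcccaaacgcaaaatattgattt
Cyp2c70: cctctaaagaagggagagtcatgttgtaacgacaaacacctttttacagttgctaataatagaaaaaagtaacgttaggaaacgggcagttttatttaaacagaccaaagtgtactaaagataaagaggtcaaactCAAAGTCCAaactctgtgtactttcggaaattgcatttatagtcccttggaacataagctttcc
Cyp1a1: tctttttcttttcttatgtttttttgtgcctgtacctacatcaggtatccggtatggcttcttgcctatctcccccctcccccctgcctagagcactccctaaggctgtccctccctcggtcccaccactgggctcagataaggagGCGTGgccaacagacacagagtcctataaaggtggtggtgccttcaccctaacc

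Of the 76 members, 32 had a mean of at least 100 CPM over the 17 liver libraries, against 9 in kidney, 6 in lung and 2 in heart. At least 1 CPM was reached by 55 in liver, 44 in kidney, 46 in lung and 50 in heart, and at least 1 read was found for 67, 73, 73 and 68. Members that followed Alb by the rule given under lung were not taken out of these counts. They numbered 40 in heart, 34 in lung and 18 in kidney, whatever their level. Both heart members over 100 CPM, Cyp2e1 and Cyp3a11, followed Alb, as did Cyp2e1 in lung, where its median was 49.9 CPM. Cyp2e1, which oxidises ethanol and acetaminophen, took 18.3% of all member reads in liver, and Cyp3a11, the main mouse Cyp3a enzyme for drugs and steroids, took 17%. Per length, the order of mean levels was Cyp2e1 at 3072 RPKM (CPM per kilobase of gene), Cyp3a11 at 1227, Cyp2d26 at 945, Cyp2c69 at 800.0, Cyp2c37 at 791, Cyp2d10 at 749.6, Cyp2c29 at 692 and Cyp2f2 at 542 RPKM. The lowest library of Cyp2e1, at 2074 RPKM, exceeded the highest of Cyp3a11, at 1726 RPKM. Their coefficients of variation (CV, SD over mean) were 18.2% and 22.3% over the 17 libraries. The ranges of neighbours from Cyp2d26 to Cyp2f2 overlapped. Cyp2c40 and Cyp2c69 are uncertain as single genes, since 26.8% of the 100-base stretches of the Cyp2c40 transcript also occur in Cyp2c69, and 8 of 75 members with a transcript shared over 10% of such stretches with another gene.

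**Figure D1:**
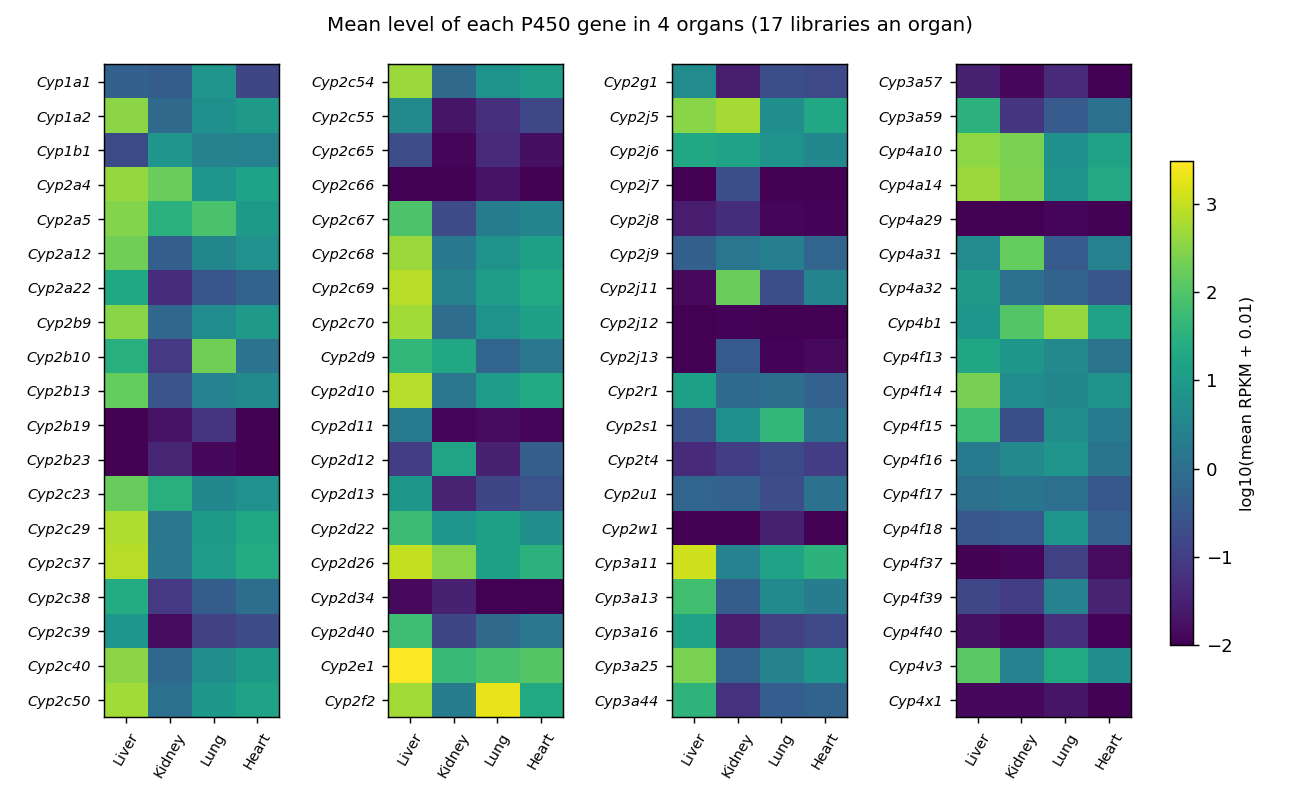
Mean level of each of the 76 members in liver, kidney, lung and heart, as the colour of log10(mean RPKM + 0.01) over 17 libraries an organ. RPKM are scaled within each organ's own fit, so colours of different organs are not on 1 common scale. Liver is brightest for most Cyp2c, Cyp2d, Cyp3a and Cyp4a genes, lung for Cyp2f2 and Cyp4b1, and kidney for Cyp2j11 and Cyp4a31. In the fit over all 68 libraries, untreated Cyp2f2 was at 1123 RPKM in lung and 904 RPKM in liver and was not called between them.

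Liver members differed widely in how steady they were. Cyp2f2, Cyp2a12, Cyp2d22 and Cyp4f13 had CVs of 11.6%, 11%, 11.1% and 8.53% over all 17 liver libraries. Cyp3a16 and Cyp3a44, Cyp3a genes known for their expression in females, had CVs of 92% and 55.7%. Cyp3a16 ranged from 5.83 to 77.3 CPM with a median of 16.1 CPM, and its high libraries were spread over the groups, with 77.3 CPM in a vehicle library at 2 h, 52.8 CPM in an Egf library at 2 h, 52.1 CPM in a vehicle library at 6 h and 69.8 CPM in an Egf library at 6 h. Cyp2b10, the classic target of Nr1i3, ranged from 8.0 to 147 CPM, and its ends came from different groups, Egf at 6 h and vehicle at 2 h. Within a single group Cyp3a16 ran from 6.28 to 77.3 CPM (vehicle at 2 h) and Cyp2b10 from 8.0 to 59.3 CPM (Egf at 6 h).

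In untreated mice, one fit over all 68 libraries compared organs, and levels in this paragraph are on the scale of that fit. Of 62 members tested, 44 were higher and 8 lower in liver than in kidney at an adjusted p under 0.05 (edgeR), against 23.8% and 32.6% of all 18736 genes. Between liver and lung 48 were higher in liver and 7 lower, against 32.6% and 38.4% of all genes, and between kidney and lung 30 were higher in kidney and 8 lower, against 35.1% and 28.7%. Of those 30, 12 followed Alb over the kidney libraries by the rule given under lung (among them Cyp3a11, Cyp2c29 and Cyp1a2), and without untreated kidney replicate 1, where Alb was at 1271 CPM, the 38 calls between kidney and lung became 25, with 16 higher in kidney. Without untreated lung replicate 1 or 3 the number higher in kidney was 17 or 18, with the replicate block 16 and with no filter on low counts 19. A gene enters the test through the organ where it is high, so these counts describe the members and support nothing further. Of the 61 members with at least 1 CPM in untreated liver, kidney or lung, liver was highest for 47, lung for 9 and kidney for 5. Cyp4v3, a fatty acid hydroxylase, was at 737 ± 123 CPM (SD, n = 3) in liver, 47.4 ± 5.40 in lung and 9.10 ± 1.99 in kidney, with a log2 difference of 6.34 ± 0.61 (SE) between liver and kidney and adjusted p = 8.46e-13 in edgeR. Cyp2r1, the vitamin D 25-hydroxylase, was at 36.5 ± 7.55 CPM in liver and 1.47 ± 0.269 CPM in kidney. Cyp1b1, which hydroxylates oestrogens, had the opposite order, at 42.0 ± 8.14 CPM in kidney, 9.76 ± 3.01 in lung and 1.10 ± 0.25 in liver.

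Of the other members named between liver and kidney, Cyp2s1 and Cyp4b1 were lower in liver, by log2 differences of -4.03 and -2.52. Cyp3a13, Cyp2d22, Cyp4f13, Cyp4f15, Cyp4a32, Cyp2g1, Cyp2c39, Cyp2c55, Cyp2c38, Cyp2d13, Cyp3a16, Cyp3a44 and Cyp3a59 were higher in liver, from 2.02 for Cyp4f13 to 9.71 for Cyp3a44 on the log2 scale. Untreated kidney replicate 1, with Alb at 1271 CPM, held the only untreated kidney reads of Cyp2c39, Cyp2c55 and Cyp2d13. Cyp3a44 was at 0.343 CPM there, against 0 and 0.0505 CPM in the other untreated kidneys. Cyp2c39, Cyp2c55, Cyp2d13, Cyp3a44 and Cyp3a59 had no read in any untreated lung library. Kidney exceeded lung for Cyp2d9, Cyp2d12, Cyp2j11, Cyp2j13, Cyp2a4, Cyp2c23 and Cyp4a31, by log2 differences from 5.56 for Cyp2j13 to 8.59 for Cyp2a4. Untreated lung replicate 3 held the only untreated lung reads of Cyp2d9, Cyp2d12, Cyp2j11 and Cyp2j13. Cyp4a31 was at 4.29 CPM there, against 0 and 0.0323 CPM. Distal kidney markers were at 106 CPM in that library, against 0.835 and 2.00 CPM in the others. The part of kidney RNA in these differences was not tested. Cyp2f2 and Cyp2b10 were lower in kidney than in both other organs, by log2 differences of 8.18 ± 1.19 and 8.15 ± 0.94 (SE) between liver and kidney and of -8.49 ± 1.20 and -9.35 ± 0.98 between kidney and lung. In untreated kidney replicates 1, 2 and 3, Cyp2f2 was at 15.4, 2.53 and 0.960 CPM and Cyp2b10 at 0.943, 0 and 0 CPM. Both were highest in the library with the high Alb, and Cyp2f2 followed Alb over the kidney libraries. Cyp4f18 was higher in lung than in liver (-3.30 ± 0.33) and kidney (-4.15 ± 0.33), as was Cyp4f39 than in kidney (-4.98 ± 0.77). Cyp2j6 and Cyp2u1 were lowest in lung of the 3 organs, by 2.85 ± 0.20 against liver for Cyp2j6 and by 1.99 ± 0.28 against kidney for Cyp2u1. Kidney also exceeded lung for Cyp4a10 (7.85 ± 1.88) and Cyp4a14 (7.98 ± 1.98). Their highest untreated lung library was again replicate 3, at 5.58 and 6.49 CPM.

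The first question put to liver was whether Egf changed the members within 2 h. Cyp4a14, a fatty acid omega-hydroxylase and a target of Ppara, rose and was the only member of 59 tested that did. It stood at 989, 661 and 974 CPM in the vehicle libraries and at 1659, 1779, 1770 and 1419 CPM in the Egf libraries. Every Egf library exceeded every vehicle library. The log2 change was 0.92 ± 0.22 (SE), with an adjusted p of 0.0195 in edgeR. That is 1 higher and 0 lower of 59 members, against 1.95% and 1.97% of all genes tested in the same comparison (3.92% in both directions), so the members' share was no larger than that of all genes. Untreated livers spanned 729.8 to 1454 CPM, and Egf replicate 4 lay within that range. At 6 h the change was 0.09 ± 0.22, and the difference between the times, -0.83 ± 0.30, did not pass (adjusted p = 0.222). The call was lost without Egf replicate 2 (adjusted p = 0.0514) and without vehicle replicate 2 (adjusted p = 0.101), and that vehicle library also stood apart in 18S RNA, at 0.0126% of reads. Egf replicate 1 at 2 h, which enters every liver comparison of Egf at 2 h, held summed adrenal markers at 183 CPM. The other livers held 0.658 to 6.25 CPM. The call of Cyp4a14 was kept without that Egf library.

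The other Cyp4a genes did not pass. Cyp4a10, the nearest relative of Cyp4a14 in function, stood at 846, 521 and 676 CPM with vehicle and at 986, 981, 961 and 956 CPM with Egf. Its groups did not overlap, but its log2 change of 0.51 ± 0.19 (SE) had adjusted p = 0.179 in edgeR. The 521 CPM came from vehicle replicate 2, the library with 18S RNA at 0.0126% of reads. Cyp4a31 was at 10.3 ± 2.06 CPM with vehicle (SD, n = 3) and 11.4 ± 5.61 CPM with Egf (n = 4). Groups did not overlap for 5 of 59 members at 2 h, with 3 higher (Cyp4a14, Cyp4a10, Cyp2d11) and 2 lower (Cyp2j6, Cyp2c55), against 7.04% higher and 9% lower among all genes.

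**Figure D2:**
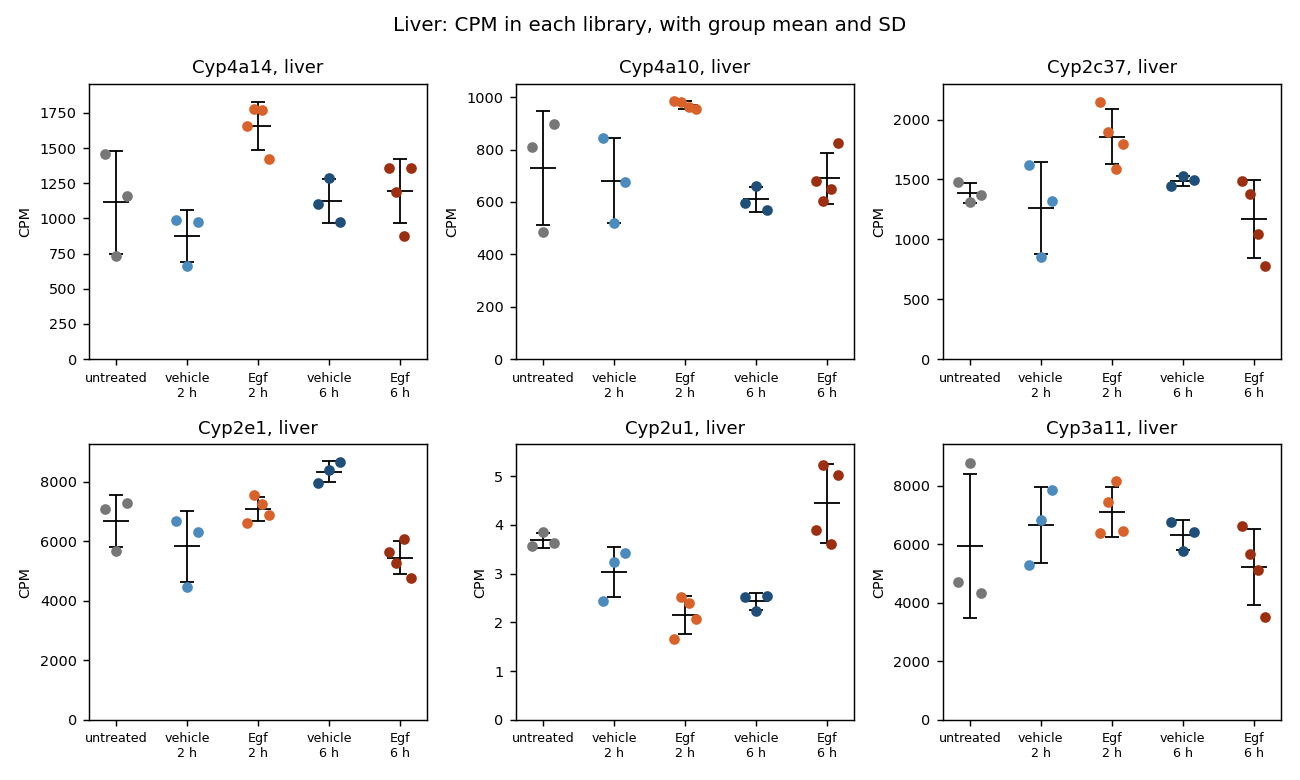
Level of 6 members in every liver library, in CPM on linear axes from 0, by group, with points for libraries and black bars for the group mean and SD (n = 3 or 4). Cyp4a14 and Cyp4a10 are highest in the Egf libraries at 2 h, and Cyp2e1 and Cyp2u1 separate Egf from vehicle at 6 h in opposite directions.

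At 2 h, 6 of 59 liver members had an unadjusted p under 0.05, against 14.7% of all genes. Cyp2c37, a Cyp2c enzyme that epoxidises arachidonic acid, stood at 1616, 850.3 and 1318 CPM with vehicle and at 2143, 1898, 1590 and 1796 CPM with Egf, with overlapping groups and a log2 change of 0.56 ± 0.22 (SE, adjusted p = 0.194, edgeR). Cyp2j6 stood at 103, 85.0 and 88.8 CPM with vehicle and at 66.0, 76.7, 63.4 and 76.9 CPM with Egf. Its log2 change was -0.38 ± 0.16 (SE, adjusted p = 0.238, edgeR), and untreated livers were lower than all vehicle libraries, at 54.8, 69.6 and 58.7 CPM. Cyp3a11, at 6662 ± 1291 CPM with vehicle and 7117 ± 849 CPM with Egf, differed by less than its spread. The 850.3 CPM of Cyp2c37 came from vehicle replicate 2, the library low in 18S RNA.

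At 6 h no liver member passed in edgeR, against 0.0883% of all genes, and 7 had an unadjusted p under 0.05, against 8.53% of all genes. DESeq2 called 1, Cyp2e1. Cyp2e1 stood at 7959, 8414 and 8655 CPM with vehicle and at 5658, 5283, 6068 and 4768 CPM with Egf. All 4 Egf libraries lay below the 3 vehicle libraries, with a log2 change of -0.62 ± 0.16 (SE) and adjusted p = 0.224 in edgeR but 0.00635 in DESeq2. The vehicle libraries at 6 h were the highest of all livers for this gene, above the untreated ones at 7083, 5679 and 7306 CPM. At 2 h the order was not seen, with 6702, 4477 and 6319 CPM in vehicle and 6627, 7554, 7255 and 6886 CPM in Egf libraries. The 4477 CPM came from vehicle replicate 2, the library low in 18S RNA, which also enters the difference between times. The difference between the Egf effects at 6 h and 2 h was -0.90 ± 0.22 (SE) for Cyp2e1, with adjusted p = 0.0599 in edgeR and 0.000583 in DESeq2.

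Cyp2u1, an enzyme that hydroxylates long-chain fatty acids, was the only member whose Egf effect differed between the times in edgeR, against 1.03% of all genes. It is scarce in liver. It stood at 2.44, 3.24 and 3.42 CPM with vehicle and 1.65, 2.52, 2.39 and 2.07 CPM with Egf at 2 h, then at 2.53, 2.23 and 2.54 CPM with vehicle and 3.90, 5.24, 3.61 and 5.03 CPM with Egf at 6 h. At 2 h 3 of 4 Egf libraries lay below all vehicle libraries, and at 6 h all 4 lay above them. Untreated livers stood at 3.57, 3.85 and 3.63 CPM. The effect at 6 h exceeded that at 2 h by 1.36 ± 0.31 on the log2 scale (SE, adjusted p = 0.0351, edgeR), whereas the effect at 6 h alone had adjusted p = 0.216. The call was lost without any filter on low counts (adjusted p = 0.102) and in 10 of the fits that left out a single library, with adjusted p up to 0.113. At 2 h these left out Egf replicates 1, 3 and 4 and vehicle replicates 2 and 3, and at 6 h Egf replicates 2 and 4 and vehicle replicates 1, 2 and 3. Cyp2c37 had the third smallest p of that comparison and did not pass, at -0.91 ± 0.30 (SE, adjusted p = 0.173).

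Groups did not overlap at 6 h for 9 of 59 members. Cyp2u1 was higher with Egf, and Cyp2e1, Cyp2c69, Cyp4f14, Cyp4f13, Cyp4f15, Cyp2d22, Cyp2b13 and Cyp2j9 were lower, against 4.52% higher and 3.88% lower among all genes. Cyp4f15, a fatty acid hydroxylase, stood at 141, 145 and 162.5 CPM with vehicle and at 123, 108.5, 109.2 and 62.3 CPM with Egf, a log2 change of -0.57 ± 0.20 (SE, adjusted p = 0.459, edgeR). Egf replicate 4, the lowest library for Cyp4f15 and Cyp2e1, had endothelial markers at 161 CPM and fibroblast and smooth muscle markers at 315 CPM, against 59.2 to 86.8 and 109 to 140.3 CPM in the other 3, and the lowest members' share of all livers, 2.92%. Without that library the log2 change of Cyp2e1 at 6 h was -0.55 (adjusted p = 0.439, edgeR), and for Cyp4f15 the part of these cells' markers was not tested. Of the 59 members, 40 had a negative log2 change at 6 h and 29 at 2 h. Their median change was -0.18 at 6 h beside 0.01 for all genes, and 0.01 at 2 h beside -0.02 for all genes.

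**Figure D3:**
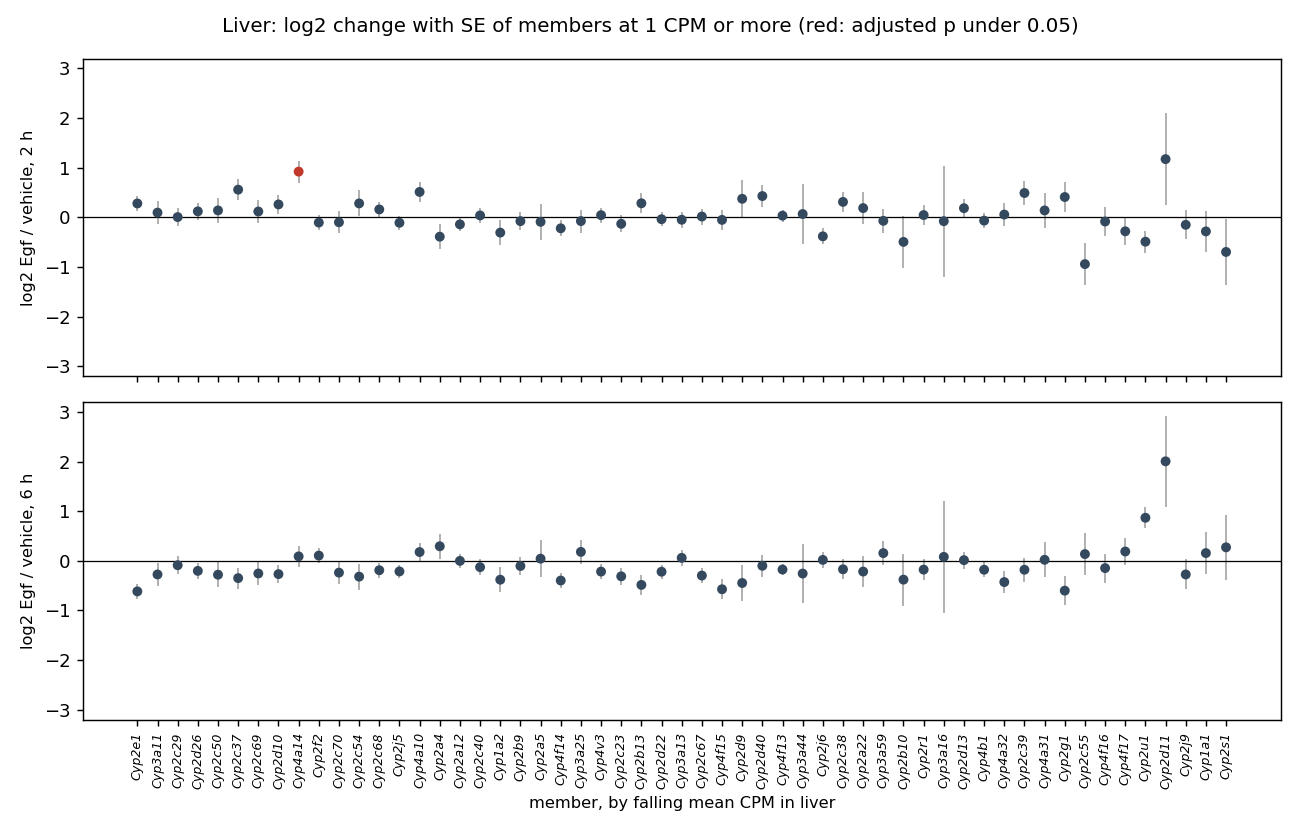
Log2 change of Egf over vehicle in liver at 2 h (top) and 6 h (bottom) for the 55 members with a mean of at least 1 CPM, ordered by falling mean CPM, with bars for the SE. Cyp4a14 at 2 h is the only red point (adjusted p under 0.05), and Cyp2d11, a scarce gene with wide bars, lies farthest up at both times.

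Vehicle mice gave no call among the 59 liver members against untreated mice. Here and in the other organs this comparison joins the injection, the isoflurane given with it and the time until sampling. These cannot be told apart. The share called among all genes was 0.155% at 2 h and 0.67% at 6 h, DESeq2 called 0 members at both times, and 5 members at 2 h and 3 at 6 h had an unadjusted p under 0.05, against 16.6% and 12.8% of all genes. The smallest p at 2 h belonged to Cyp2j6, at 92.2 ± 9.43 CPM with vehicle and 61.1 ± 7.63 CPM untreated (SD, n = 3 each), a log2 change of 0.60 ± 0.17 (SE, adjusted p = 0.192, edgeR). Cyp2c70, which converts bile acids to muricholic acids, stood at 1756, 1074 and 1181 CPM with vehicle at 2 h and at 734.5, 922 and 685 CPM untreated (0.78 ± 0.24, adjusted p = 0.211). Cyp2j5 differed by 0.37 ± 0.15 (adjusted p = 0.252). At 6 h the smallest p belonged to Cyp4f17 at -0.89 ± 0.30, Cyp2u1 at -0.59 ± 0.23 and Cyp4f39 at -1.47 ± 0.66, with adjusted p of 0.211, 0.285 and 0.355.

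Genes around the P450 enzymes in liver were read from lists of general knowledge, chosen with earlier results of these data known. Counts per list therefore describe the listed genes and support nothing further. Of 21 nuclear receptors and factors tested, 4 changed at 2 h of Egf, against 3.92% of all genes, with Foxa2 and Cebpb higher and Ppargc1a and Ppara lower. Ppara, the receptor that drives Cyp4a genes, stood at 68.6 ± 7.59 CPM with vehicle (SD, n = 3) and 35.1 ± 4.30 CPM with Egf (n = 4). It fell by 0.96 on the log2 scale (SE 0.20, adjusted p = 0.00598, edgeR), in the same libraries where Cyp4a14 rose. Foxa2 rose by 0.89 ± 0.15 and Cebpb by 1.22 ± 0.21, and Ppargc1a fell (-2.06 ± 0.27). None of 14 other Ppara targets, 13 electron donors and heme genes, 5 other Ahr targets, 19 conjugation enzymes or 12 pericentral genes tested passed at 2 h. In that order 3, 1, 1, 1 and 0 of these genes had an unadjusted p under 0.05, against 14.7% of all genes. Of 7 PAR bZIP and clock output factors, Hlf fell (-0.81 ± 0.18, adjusted p = 0.0138), and of 11 periportal genes Pck1 fell (-2.50 ± 0.32, adjusted p = 0.000118). At 6 h of Egf no gene of these 8 lists passed.

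Ahr, Nr1i2 and Nr1i3 did not pass at 2 h, with log2 changes of 0.01 ± 0.23, -0.33 ± 0.17 and 0.14 ± 0.20 (SE). Por, the electron donor of every member, was at 343 ± 20.4 CPM with Egf and 355 ± 53.0 CPM with vehicle at 2 h. In vehicle mice at 6 h Por stood at 760.5 ± 28.9 CPM (SD, n = 3) against 361 ± 99.5 CPM in untreated mice, a rise of 1.08 ± 0.18 on the log2 scale (SE, adjusted p = 0.00825, edgeR). In the same comparison Stat5b (-0.78 ± 0.14, adjusted p = 0.00949), Nr0b2 (-1.45 ± 0.31, adjusted p = 0.0328), Nfil3 (-1.61 ± 0.27) and Nr1d1 (-1.38 ± 0.27) fell and Tef (1.36 ± 0.24) rose, while no P450 member passed.

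In kidney, of the 76 members 47 were tested and 9 had a mean of at least 100 CPM. Per length, Cyp2j5, an epoxygenase of the proximal tubule, led at 554 RPKM and took 26.5% of member reads in kidney. It was followed by Cyp2d26 at 305 RPKM, Cyp4a14 at 250.4, Cyp4a10 at 241, Cyp2a4 at 175, Cyp2j11 at 170.4, Cyp4a31 at 156 and Cyp4b1 at 106 RPKM. On the scale of the fit over all 68 libraries, only Cyp2j11, Cyp4a31 and Cyp4b1 of these 8 had higher means in untreated kidney than in untreated liver. On that scale Cyp2j5 was close in both, at 1054 ± 74.6 CPM in kidney and 1104 ± 42.1 CPM in liver (SD, n = 3). Cyp2j5, Cyp2d26, Cyp4a14, Cyp4a10 and Cyp2a4 were not called between untreated liver and kidney. On the scale of the kidney fit, Cyp2j5 was steady, from 1124 to 1421 CPM over all 17 libraries (CV 6.19%), and no other of these 8 was as steady. The ranges of neighbours from Cyp2d26 to Cyp4b1 overlapped, and the lowest library of Cyp2j5, at 479 RPKM, exceeded the highest of Cyp2d26, at 401 RPKM.

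No kidney member passed in any comparison in edgeR or DESeq2. The shares called among all genes were 0.256% and 0% for Egf at 2 h and 6 h, 0.0256% and 0.211% for vehicle against untreated at 2 h and 6 h, and 0.0192% for the difference between the Egf effects. Unadjusted p was under 0.05 for 12, 0, 1, 3 and 3 of 47 members in the same order, against 7.82%, 6.3%, 13.6%, 7.11% and 6.52% of all genes. Cyp4a14, the liver gene that rose, stood in kidney at 561, 499.6 and 736 CPM with vehicle and at 684, 861, 772 and 743 CPM with Egf at 2 h. These groups overlapped, and the log2 change was 0.35 ± 0.15 (SE, adjusted p = 0.568, edgeR). Cyp2j5 changed by 0.06 ± 0.08 at 2 h and -0.09 ± 0.08 at 6 h.

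Of the 12 kidney members with an unadjusted p under 0.05 at 2 h, 10 were among the 15 tested members that followed Alb over the kidney libraries. Alb ran from 21.1 to 1271 CPM in kidney. These 15 had a median log2 change of -2.97, and the 32 tested members that did not follow Alb had 0.04. Cyp2d10, for example, was at 4.12 ± 5.47 CPM with vehicle and 0.49 ± 0.30 CPM with Egf (-3.04 ± 1.23, adjusted p = 0.511). Cyp4f15 (-2.07 ± 0.78, adjusted p = 0.451) and Cyp3a13 (-1.34 ± 0.51, adjusted p = 0.463) had the smallest p. Groups did not overlap for Cyp3a13 alone, the 1 of 47 members lower in every Egf library, against 6.31% of all genes in either direction.

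At 6 h the smallest p for Egf in kidney belonged to Cyp2s1 (0.24 ± 0.13), Cyp1b1 (0.24 ± 0.13) and Cyp1a1 (0.69 ± 0.38), with adjusted p of 0.803, 0.803 and 0.808 in edgeR. For vehicle at 6 h, Cyp1b1 stood at 35.4, 37.5 and 33.5 CPM against 39.2, 48.8 and 57.1 CPM in untreated kidneys (-0.45 ± 0.14, adjusted p = 0.338). Cyp2a5, a coumarin hydroxylase, stood at 95.7, 56.6 and 99.8 CPM against 51.0, 40.1 and 48.2 CPM (0.86 ± 0.28, adjusted p = 0.389). Neither passed, although the groups of both did not overlap, as for 4 of 47 members and 13.8% of all genes. For vehicle at 2 h the smallest p belonged to Cyp2d26 (0.34 ± 0.15), Cyp2d9 (0.60 ± 0.35) and Cyp4a32 (0.49 ± 0.28), with adjusted p of 0.34, 0.445 and 0.45. For vehicle at 6 h the third was Cyp4f15 (-1.67 ± 0.72, adjusted p = 0.612). The difference between the Egf effects was led by Cyp3a13 (1.64 ± 0.70), Cyp2c37 (3.98 ± 1.78) and Cyp2b9 (4.01 ± 1.85), with adjusted p of 0.706, 0.738 and 0.756, and all 3 followed Alb in kidney.

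Lung was led by enzymes of the club cell. Cyp2f2, which activates naphthalene, took 61.4% of member reads in lung and ranged from 2984 to 5181 CPM, or 2007 RPKM on average. Per length it was followed among members that did not follow Alb by Cyp4b1 at 414 RPKM, Cyp2b10 at 202, Cyp2a5 at 81.9, Cyp2s1 at 42.8, Cyp4v3 at 21.7, Cyp2d22 at 13.3 and Cyp4f18 at 7.74 RPKM. The ranges of Cyp2f2, Cyp4b1 and Cyp2b10 did not overlap, whereas Cyp2a5 varied from 45.4 to 454 CPM (CV 65.0%). Of the 76 members 34 followed Alb, 32 did not and 10 had under 10 lung reads in all.

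A member was said to follow Alb where its Spearman correlation with Alb over the organ's 17 libraries was at least 0.7 and its reads were at most 3 times those expected from Alb at the liver's ratio. In lung these included Cyp2e1, Cyp3a11, Cyp2d26 and Cyp2c69, whose reads were 1.17, 0.55, 0.67 and 0.70 times the expectation. Their summed level ran from 20.6 to 5194 CPM over the lung libraries, and the sum of the others from 4719 to 7539 CPM. Cyp2e1 kept 13.7 to 247 CPM in lung libraries other than Egf replicate 3 at 6 h, where it reached 1532 CPM and Alb 19092 CPM. In the 5 lung libraries with Alb under 10 CPM, Cyp2e1 stood at 17.3 to 49.9 CPM. Groups of lung libraries differed in Alb, and the members that followed it had median log2 changes of 2.43 and 1.96 for Egf at 2 h and 6 h and 2.62 and 5.10 for vehicle against untreated at 2 h and 6 h. The corresponding medians of the other members were 0.13, 0.02, 0.07 and 0.13.

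**Figure D4:**
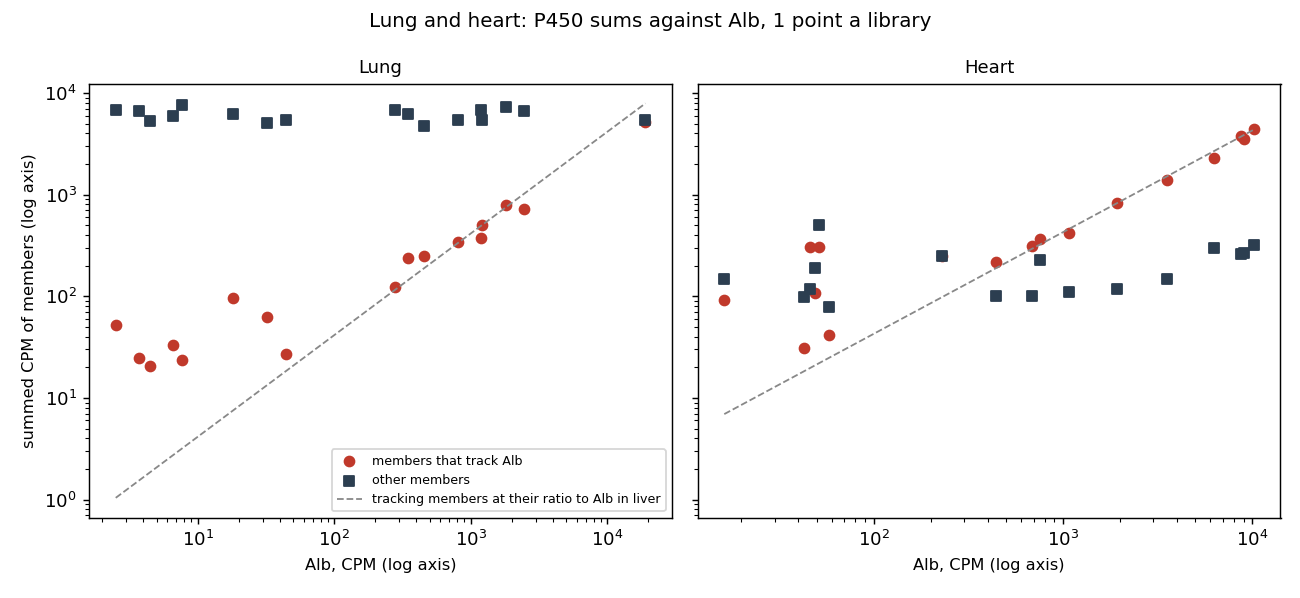
Summed CPM of members that follow Alb (red) and of other members (dark squares) against Alb in each lung (left) and heart (right) library, on log axes. The dashed line marks the red genes' ratio to Alb in liver, near which the red points lie at high Alb, while the other members in lung stay between 4719 and 7539 CPM.

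No lung member passed in edgeR in any comparison. Shares called among all genes were 0.84% and 0% for Egf at 2 h and 6 h, 0.0656% and 0.101% for vehicle against untreated, and 0.0417% for the difference between times. Unadjusted p was under 0.05 for 2, 0, 2, 3 and 3 of 52 members, against 8.48%, 5.41%, 12.2%, 9.8% and 5.73% of all genes. DESeq2 called 0, 0, 2, 3 and 0, of which Cyp2d40 and Cyp3a44 for vehicle at both times followed Alb, and Cyp2a5 at 6 h did not. Cyp2f2 was at 4142 ± 570 CPM with vehicle and 4184 ± 689 CPM with Egf at 2 h, a log2 change of 0.01 ± 0.18 (SE). Cyp4b1 changed by 0.13 ± 0.10 and Cyp2b10 by 0.13 ± 0.16.

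Cyp1a1, the classic target of Ahr, stood out in 1 lung library. The 3 vehicle libraries at 2 h held 8.37, 272 and 5.51 CPM, and the other 14 lung libraries ran from 1.66 to 6.34 CPM. With replicate 2 in, the log2 change of Egf at 2 h was -4.26 ± 1.08 (SE, adjusted p = 0.122, edgeR) and that of vehicle against untreated 4.49 ± 1.23 (adjusted p = 0.228). The difference between the Egf effects was 4.20 ± 1.52 (adjusted p = 0.679). Without replicate 2 the first 2 values were -0.48 (adjusted p = 0.983) and 0.72 (adjusted p = 0.609). The same library had Nqo1, another Ahr target, at 36.6 CPM against 4.18 to 19.7 CPM in the other lungs. Aldh3a1 was at 57.0 CPM there, against 34.8 and 44.8 CPM in its group. Aldh3a1 was higher still in Egf replicate 4 at 6 h, where Cyp1a1 lay in the range of the other 14 libraries. In vehicle replicate 2, Tiparp at 35.9 CPM and Ahrr at 0.40 CPM lay within or below the range of its group. Vehicle replicate 2 at 2 h was also the highest heart library for Cyp1a1, at 2.69 CPM, and the highest kidney library, at 1.78 CPM, but not the highest liver, at 1.12 CPM. The sequence above shows GCGTG 54 bases before the Cyp1a1 start, letters found in 24.8% of all promoters. A part of Ahr in this library was not tested.

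**Figure D5:**
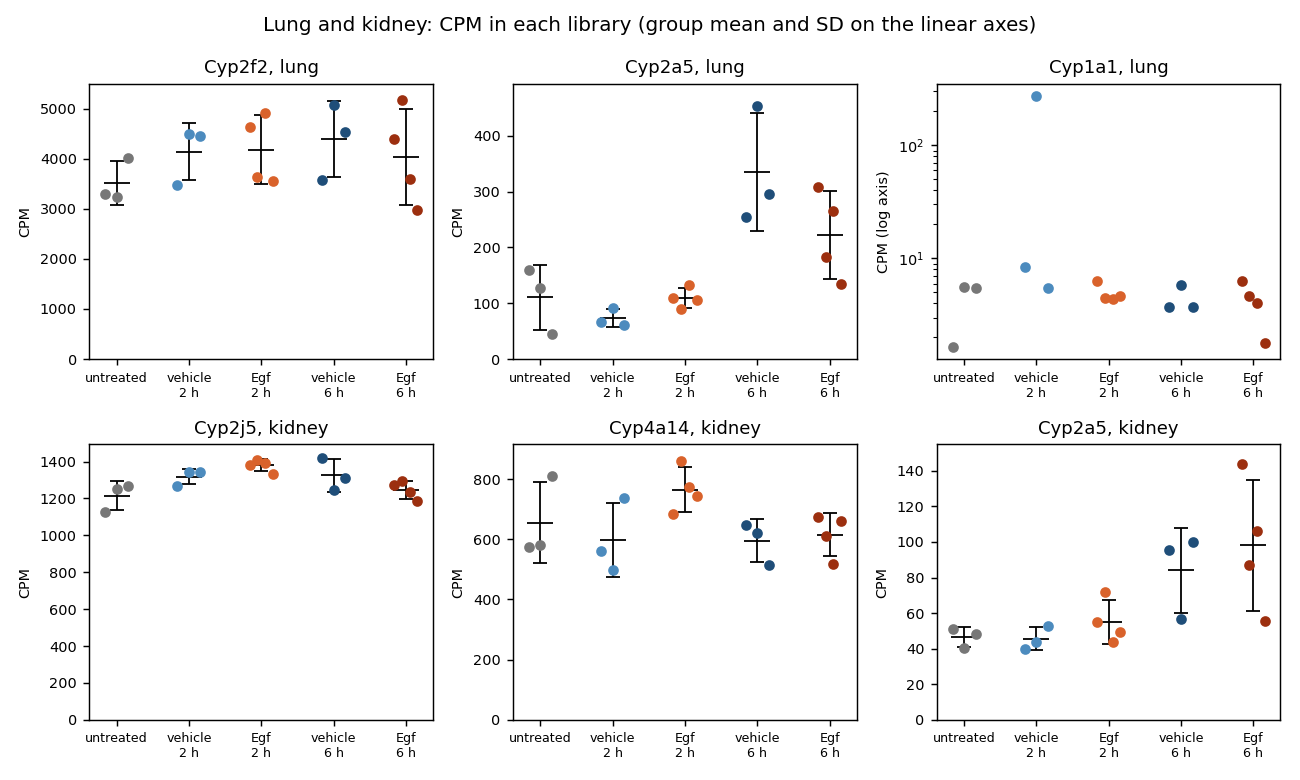
Level of Cyp2f2, Cyp2a5 and Cyp1a1 in every lung library (top, Cyp1a1 on a log axis) and of Cyp2j5, Cyp4a14 and Cyp2a5 in every kidney library (bottom), in CPM by group, with group mean and SD on the linear axes. A single vehicle library at 2 h holds 272 CPM of Cyp1a1, and the group means of Cyp2a5 are highest at 6 h in both organs.

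Cyp2a5 in lung stood at 159, 128 and 45.4 CPM in untreated mice, at 66.5, 92.2 and 61.6 CPM with vehicle at 2 h and at 255, 454 and 296 CPM with vehicle at 6 h. The vehicle libraries at 6 h lay above all untreated ones, by 1.60 ± 0.41 on the log2 scale, with adjusted p = 0.221 in edgeR and 0.00489 in DESeq2. With Egf it stood at 110.0, 89.2, 133 and 106.5 CPM at 2 h and at 308, 182, 265 and 134 CPM at 6 h, and the difference between the Egf effects was -1.17 ± 0.53 (adjusted p = 0.848). Cyp2b10 stood at 500.6, 559.9 and 458 CPM with vehicle at 6 h and at 375, 280.1 and 345.5 CPM untreated (0.60 ± 0.17, adjusted p = 0.271). Groups did not overlap for 7 of 52 members in that comparison, 6 higher and 1 lower, against 16.9% of all genes in either direction.

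Cyp4f18, which inactivates leukotriene B4 in neutrophils, was at 21.5, 18, 13.9 and 19.2 CPM with Egf and 10.3, 14.5 and 12.3 CPM with vehicle at 2 h in lung (0.55 ± 0.18, adjusted p = 0.237, edgeR). The summed neutrophil markers moved with it, at 268, 192, 150.5 and 125 CPM with Egf and 107, 72.1 and 114 CPM with vehicle, without overlap, and their part in the result was not tested. At 6 h its change was -0.32 ± 0.17 and the difference between times -0.88 ± 0.25 (adjusted p = 0.414). Cyp3a13 was at 11.05 ± 2.02 CPM with Egf and 7.20 ± 0.855 CPM with vehicle at 2 h (0.62 ± 0.35, adjusted p = 0.702), with log2 changes of 0.68 ± 0.34 for Egf at 6 h and 0.97 ± 0.37 for vehicle at 6 h against untreated (adjusted p = 0.943 and 0.424). Cyp4a31 had the third smallest p for Egf at 6 h (3.74 ± 2.00, adjusted p = 0.944). Reads of Cyp3a13 were 3.08 times those expected from Alb, just outside the limit of 3. Cyp4f17 (-0.59 ± 0.26) and Cyp4a31 (-3.40 ± 1.87) had the next smallest p for vehicle at 2 h, with adjusted p of 0.401 and 0.461, and Cyp4a31 turned to 2.69 without untreated replicate 3, which held kidney distal markers at 106 CPM.

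In heart, of the 76 members 40 followed Alb over the heart libraries, 20 did not and 16 had under 10 reads. Per length the 4 highest of the former were Cyp2e1 at 109, Cyp3a11 at 35.5, Cyp2d26 at 34.0 and Cyp2c37 at 23.6 RPKM, with reads 1.15, 0.88, 1.14 and 0.93 times those expected from Alb. Cyp2e1 stood at 1034, 69.3 and 792 CPM in untreated hearts and at 20.6, 40.0 and 10.1 CPM with vehicle at 2 h, in libraries whose Alb was 10211, 751 and 8708 CPM and 51.5, 16.2 and 57.8 CPM. Across the libraries the summed level of the 40 ran from 31.2 to 4462 CPM. The points of the plot of sums against Alb lay above the line at low Alb, as in Egf replicate 2 at 2 h, where the sum was 309 CPM, Cyp2e1 120 CPM and Alb 45.9 CPM. The summed lung club cell markers were at 372 CPM in that library, against 21.7 to 45.0 CPM in the 5 other hearts with Alb under 100 CPM, and Cyp2f2 was at 116 CPM. The part of lung RNA was not tested.

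Another part of the heart reads moved with kidney markers. Proximal tubule markers reached 2757 CPM and distal ones 849 CPM in heart vehicle replicate 1 at 2 h, and Cyp2j5 was highest there, at 172 CPM. Reads of Cyp2j11, Cyp4a31 and Cyp2d12, kidney members of which liver makes little, were 1.17, 1.07 and 1.90 times the sum expected from Alb and from the distal markers, an expectation added after the data were seen. Cyp4b1 (8.80 times), Cyp2j6 (4.40), Cyp1b1 (26.4), Cyp2s1 (13.1), Cyp2j9 (17.6), Cyp4f16 (12.1), Cyp2u1 (43.8) and Cyp4f18 (39.6) exceeded that sum. Cyp4b1 was the highest of these per length, at 14.8 RPKM, and stood between 21.9 and 37.5 CPM in all heart libraries except vehicle replicate 1 at 2 h (72.0 CPM) and vehicle replicate 2 at 6 h (58.4 CPM). Distal kidney markers were at 849 and 140.4 CPM in these libraries, but also at 239.6 CPM in untreated replicate 2 and 192 CPM in Egf replicate 1 at 6 h, where Cyp4b1 was at 37.5 and 32.7 CPM.

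No heart member passed in edgeR in any comparison, and shares called among all genes were 0.211% and 0.0128% for Egf at 2 h and 6 h, 0.0128% and 0.0192% for vehicle against untreated and 0.0128% for the difference between times. Unadjusted p was under 0.05 for 13, 0, 33, 2 and 0 of 57 members, against 7.64%, 10.5%, 16.2%, 9.32% and 4.24% of all genes. DESeq2 called 26 members for vehicle at 2 h against untreated and 0 in the others, and all 26 of these followed Alb. In the same comparison 31 of the 33 members with an unadjusted p under 0.05 followed Alb, and the 40 had a median log2 change of -6.71, against -0.19 in the 17 other members tested. For Egf at 2 h these medians were 4.23 and 0.12, at 6 h 1.51 and -0.14, and for vehicle at 6 h -2.58 and -0.21. For vehicle at 2 h against untreated the groups of 31 of 57 members did not overlap, all lower with vehicle, against 8.64% of all genes. Cyp2b9, at 0.174 ± 0.019 CPM with vehicle and 46.0 ± 36.1 CPM untreated, and Cyp4f15, at 0.062 ± 0.064 and 12.0 ± 9.35 CPM, had among the smallest p, each with adjusted p = 0.232, and Cyp2c38 had no read in the vehicle libraries. The part of carried-over liver and kidney RNA in each change was not tested beyond these values.

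Among the heart members that did not follow Alb, Cyp1b1 stood at 21.5, 22.8, 36.2 and 20.9 CPM with Egf at 2 h. With vehicle at 2 h it stood at 21.7, 18.2 and 13.1 CPM, and with Egf at 6 h at 17.2, 7.58, 6.86 and 7.67 CPM. Neither comparison of Egf with vehicle of the same time passed for Cyp1b1. The fall between Egf libraries at 2 h and 6 h was not tested and is not a comparison with vehicle. Cyp2j6 ranged from 7.54 to 19.2 CPM over all heart libraries with every pair of groups overlapping for Egf. The smallest p for Egf at 2 h belonged to Cyp2f2 (3.99 ± 1.68), Cyp2a22 (5.46 ± 2.32) and Cyp2b13 (6.06 ± 2.57), each with adjusted p = 0.635 in edgeR, and all 3 followed Alb. The 2 Egf libraries with high Cyp2f2, at 116 and 101 CPM, held club cell markers at 372 and 356 CPM, and the other 2 at 32.7 and 37.9 CPM. Cyp2d22, at 16.7 ± 4.24 CPM with vehicle at 6 h and 31.5 ± 11.1 CPM untreated (-0.92 ± 0.35, adjusted p = 0.466), lay just outside both limits for following Alb, with a correlation of 0.699 and a ratio of 3.06. For vehicle at 6 h Cyp2r1 was at 0.605 ± 0.483 CPM against 2.68 ± 2.07 CPM (adjusted p = 0.537). Its log2 change turned from -2.14 to 0.20 without libraries with high Alb, and it too lay just outside the limit, with a correlation of 0.691 and a ratio of 1.24. For Egf at 6 h the smallest p belonged to Cyp2c55, Cyp3a59 and Cyp2a4, with adjusted p of 0.481, 0.537 and 0.553, and for the difference between times to Cyp4f18, Cyp2c38 and Cyp1a2, each with adjusted p = 0.96.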

How the data were processed

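The 68 libraries did not keep strand, so reads of a gene and of an antisense partner are mixed. HISAT2 2.0.5, featureCounts 1.5.0-p3 and the build mm39 are named in the submitters' processing notes, and the deposited table holds the authors' raw counts per gene. The 76 members and all lists were chosen with earlier results of these data known.

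After filterByExpr and TMM scaling, edgeR 4.0.16 (R 4.3.3) fitted robust quasi-likelihood F tests, in a fit per organ over 17 libraries and a fit over all 68 for untreated organs. The Benjamini-Hochberg adjustment covered every tested gene, with 0.05 as the threshold, and SE follows from the F statistic. CPM are on the scale of the organ's fit unless said otherwise, marker and Alb levels and sums over members are CPM of library totals, and RPKM is CPM per kilobase of gene length. The script was tested on simulated data. Depth was 13271813 to 24972005 reads, and members with under 10 reads in an organ were not classed.

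Named genes were the called members with at least 1 CPM in a group, up to 20 by smallest p, or else the 3 with smallest p, the 8 highest per organ and up to 4 called genes per list, with others chosen after their values were seen. Alternatives were RLE size factors, no filter, DESeq2 1.42.0, a replicate block, leaving out each library, Alb and adrenal covariates, no libraries with high Alb, and other limits for following Alb.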

Additional observations from a re-analysis of the deposited data

Results flagged for a closer look

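Dixon's test of single libraries was run on 130 groups of 4, and chance flags about 1 in 20 of them. It marked 15. In heart, Egf replicate 3 at 2 h stood apart in the members' share of reads (0.257%), Cyp2a4 (45.0 CPM), Cyp2d22 (32.5 CPM), Cyp4f15 (7.65 CPM), Cyp1b1 (36.2 CPM) and Cyp2c55 (0.145 CPM). That library had Alb at 6271 CPM and distal kidney markers at 98.3 CPM. Cyp1b1 was also high in heart Egf replicate 1 at 6 h, at 17.2 CPM, where distal kidney markers were at 192 CPM. Over all heart libraries its reads were 571 times those expected from Alb. They also exceeded the sum expected from Alb and the distal markers, as given under heart. The part of carried-over RNA in the 2 high values of Cyp1b1 was not tested.

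In kidney, Egf replicate 2 at 2 h had the highest members' share of its group (0.531%). Cyp2c37 at 1.43 CPM at 2 h and Cyp2d10 at 4.19 CPM at 6 h each stood apart from the other 3 Egf libraries. In liver at 6 h of Egf, Cyp3a16 reached 69.8 CPM in replicate 3 and Cyp2d11 reached 16.1 CPM in replicate 2.

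In lung, Cyp1a1 was at 6.34 CPM in Egf replicate 1 at 2 h. Cyp3a13 was at 42.2 CPM in Egf replicate 3 at 6 h, the lung library with the most Alb. Cyp4f39, which hydroxylates very long fatty acids for the skin barrier, was at 34.0 CPM in Egf replicate 4 at 6 h, against 2.36 to 4.67 CPM in the other 3, and Aldh3a1 was at 367 CPM in the same library, against 28.0 to 47.9 CPM.

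The Egf effect on Cyp2u1 in liver differed between 6 h and 2 h by 1.36 on the log2 scale, as tested by the interaction term in edgeR.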

How the results depend on the processing

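Of the values of named members under alternatives, 1318 kept their direction and side of the threshold, 8 came to pass, 13 no longer passed and 2 changed sign: Cyp4a31 in lung for vehicle at 2 h (2.69 without untreated replicate 3, and -4.20 to -2.99 without any other library) and Cyp2r1 in heart for vehicle at 6 h (0.20 without libraries with high Alb). Most named members within an organ were not called in the main fit, so for them keeping the side of the threshold means staying uncalled. Neither call within an organ, Cyp4a14 for Egf at 2 h and Cyp2u1 for the difference between times in liver, passed under all alternatives. The 20 calls named in each comparison of untreated organs, taken by smallest p, passed under all alternatives run. DESeq2 called 1 liver member for Egf at 6 h, 2 for the difference between times in liver, 2 and 3 in lung for vehicle at 2 h and 6 h, and 26 in heart for vehicle at 2 h. For the difference between times in liver, RLE size factors gave 2, no filter gave 0 and the replicate block gave 2 (Cyp2u1 and Cyp2e1 under both RLE and the block). Between untreated kidney and lung the replicate block gave 25. Leaving out single libraries gave 0 to 1 calls in liver for Egf at 2 h and for the difference between times, 52 to 53 between untreated liver and kidney, 53 to 56 between liver and lung, and 25 to 39 between kidney and lung, the 25 without untreated kidney replicate 1, which held Alb at 1271 CPM. The cause of these shifts was not tested. Same-numbered libraries correlated from -0.54 to 0.66 in their deviations, and in 2 of 16 comparisons every pair was over 0.1, so the numbers were not taken as pairs. Of 48 numbered libraries 17 correlated best with their own number. With limits of 0.5 for the correlation or 2 for the ratio, 44 or 39 heart members followed Alb in place of 40, and 34 in lung each time.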
